A study of Homo sapiens with 18 samples.

Results

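The 10 genes described here encode the receptors, a ligand, the initiator caspase and the inhibitor of extrinsic apoptosis: TNFSF10, FAS, TNFRSF10A, TNFRSF10B, TNFRSF10C, TNFRSF10D, EDA2R, TNFRSF1A, CASP8 and CFLAR. Each was found as 1 row, by its symbol, in every count table, so they are 10 of the 40916 symbols listed. Their levels are given as CPM, a gene's counts scaled to the same total in every library.

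Extrinsic apoptosis starts at the cell surface, where a ligand of the tumour necrosis factor family draws receptors with an intracellular death domain into a cluster. FAS and the TRAIL receptors then recruit the adaptor FADD and procaspase-8, which cuts itself free and activates the executioner caspases directly or through BID and the mitochondria. Decoy receptors bind the same ligand without passing on a full death signal, the caspase-8-like protein encoded by CFLAR competes at the receptor complex, and several receptor genes of this pathway are known to be induced after DNA damage in epithelial cells.

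Polyadenylated RNA was sequenced from MCF10A, HCT116 and mixed cultures, 3 libraries in each of 6 groups. MCF10A is a non-transformed human mammary epithelial line, which here carried a histone H2B-GFP reporter and grew in F12:DMEM with horse serum, EGF, hydrocortisone, cholera toxin and insulin. HCT116 comes from a colorectal carcinoma. The cells used carried no label and grew in McCoy's 5A with fetal bovine serum. The mixed cultures were described as 50% of each line, and their medium is not given in the sources used here. Each kind of culture formed a group without irradiation (NIR) and a group given 10 Gy (IR), written as MCF10A NIR, Mixed IR and so on. For the time of harvest, the titles give day 2 and the series text gives 72 h after irradiation. The replicates are called biological in the labels, which do not say whether they were separate irradiations, so the p-values measure the spread between these cultures. Line and medium cannot be told apart in any comparison of MCF10A with HCT116.

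Library totals ran from 25737818 to 40839835 counts. Of the values from 1 to 10, 68.3% were even. Whether the mates of a read pair were counted one by one is not given in the sources used here, so lower bounds are also given for counts divided by 2. KRT5, a basal keratin, was at 2703 to 2962 CPM in the 6 MCF10A libraries and at most 2.60 CPM in the 6 HCT116 libraries, whereas CDX2, an intestinal transcription factor, was at 0 in MCF10A and at 9.03 to 12.9 CPM in HCT116. CDX1, another intestinal factor, was at 0 in all 12 monoculture libraries. The basal mammary marker list summed to 5969 to 9353 CPM in MCF10A and 478 to 1138 CPM in HCT116. The intestinal list summed to 16.2 to 30.2 CPM in MCF10A and 44.4 to 53.7 CPM in HCT116, so other genes of it had counts in MCF10A. A list of immune or stromal markers summed to 6.99 to 16.9 CPM in MCF10A and 29.6 to 47.1 CPM in HCT116. CDKN1A, a cell-cycle inhibitor gene, and MDM2, a ubiquitin ligase gene, are known DNA damage response genes used as a reference and rose in all 3 kinds of culture: CDKN1A by 1.76, 2.33 and 2.19 and MDM2 by 0.98, 1.41 and 1.58 on the log2 scale in MCF10A, HCT116 and the mixed cultures.

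A stretch upstream of TNFSF10 is shown because this gene stood apart in the irradiated mixed cultures. It comes from RefSeq windows on GRCh38.p14, which were at hand for 6 of the 10 genes (14 windows). The capitals mark the core of an interferon-stimulated response element, GAAANNGAAA, which reads on the opposite strand of the sequence as printed.
TNFSF10, chr3:172523508-172523680, minus strand: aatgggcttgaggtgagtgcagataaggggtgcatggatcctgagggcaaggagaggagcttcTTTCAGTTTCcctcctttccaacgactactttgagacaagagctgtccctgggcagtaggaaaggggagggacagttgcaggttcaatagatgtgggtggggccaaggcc
The motif was searched on both strands of the 250 bases upstream of each start. It was in 1 of the 14 windows and in 3.02% of all 35116 windows. The stretch lies outside annotated exons, ahead of the first exon of TNFSF10. A match is a description of letters, and the motif was chosen after the expression values had been seen.

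Most of these genes rose after irradiation in every kind of culture. In MCF10A, 6 of the 9 genes tested rose and 1 fell, while 55.4% of all genes tested were called in either direction (26.2% higher, 29.2% lower). HCT116 had 8 higher and 1 lower of 9, against 52.5% of all genes (25.3% higher, 27.2% lower). In the mixed cultures 8 were higher and 1 lower of 9, against 49.4% of all genes (24.0% higher, 25.4% lower). The median log2 fold change of the genes tested was 0.36 in MCF10A, 0.86 in HCT116 and 0.80 in the mixed cultures, and that of all genes tested was at most 0.01. A gene was called at an adjusted p under 0.05 (edgeR quasi-likelihood test, Benjamini-Hochberg over all genes). A low-count filter left TNFRSF10C out of the MCF10A test, TNFSF10 out of the HCT116 test and EDA2R out of the mixed test. The 8 higher genes in HCT116 include EDA2R, which had no counts in HCT116 NIR and passed this filter only through HCT116 IR.

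**Figure D1:**
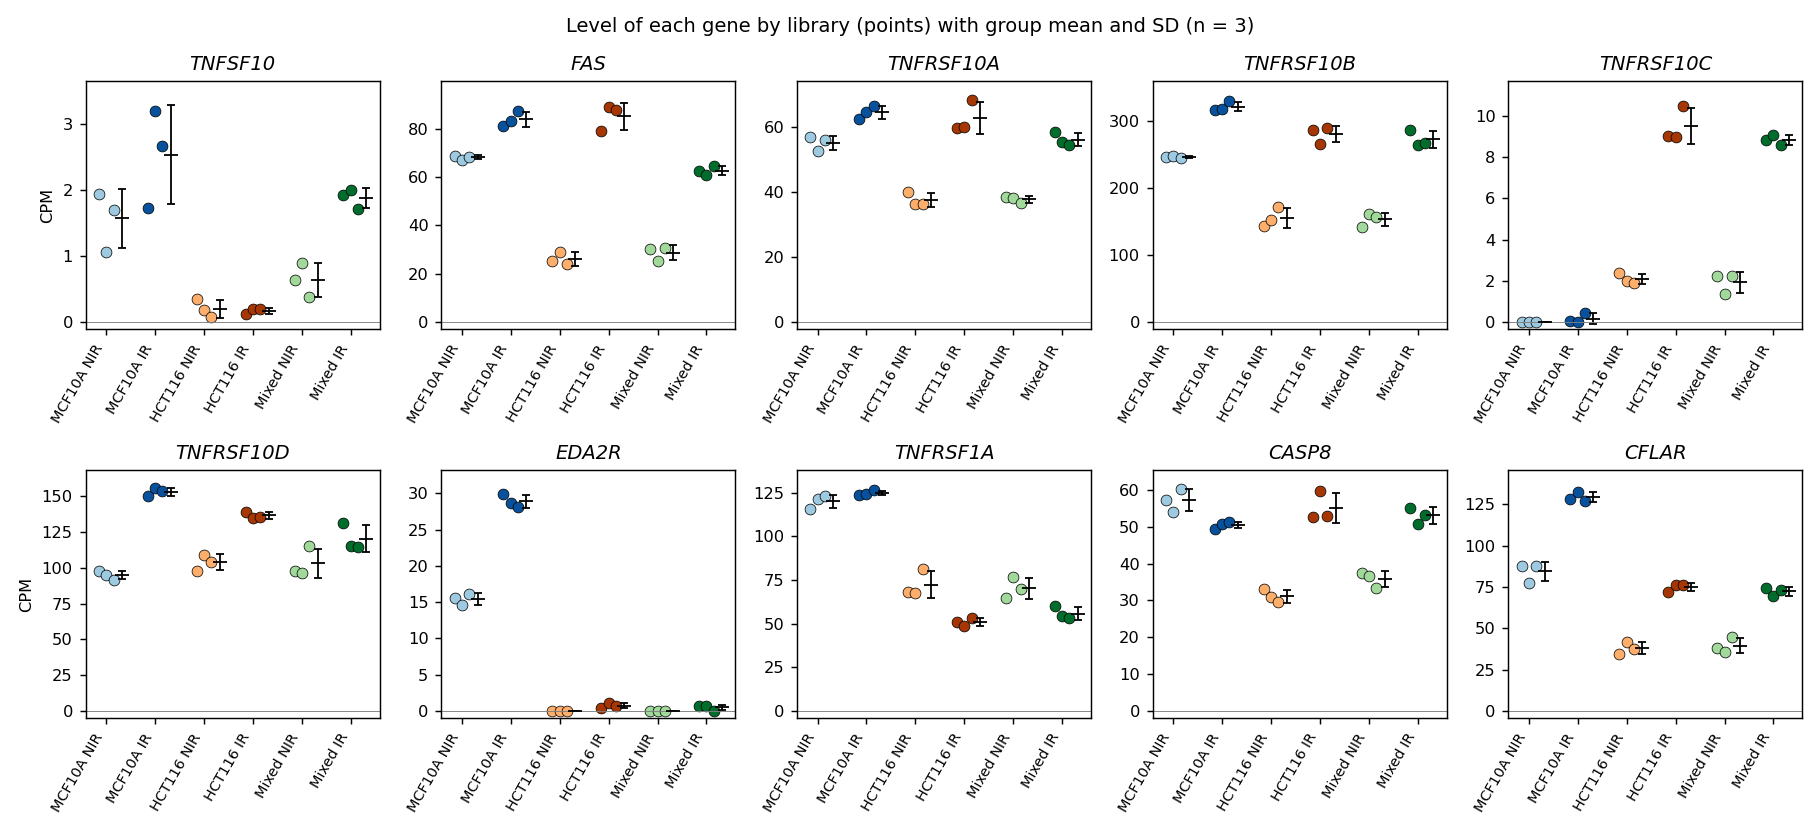
Level of each gene in CPM (y axis, linear, a scale per panel) in the 18 libraries (points) by group (x axis), with the group mean and SD beside them (n = 3). FAS in HCT116 goes from 26.1 to 85.1 CPM, EDA2R is at 0 in every HCT116 NIR and Mixed NIR library, and TNFSF10 in Mixed IR lies far above both HCT116 groups.

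TNFSF10 encodes TRAIL, the ligand of the 4 TNFRSF10 receptors. Its level was low everywhere. MCF10A NIR libraries held 1.94, 1.07 and 1.71 CPM, and MCF10A IR libraries held 1.73, 3.21 and 2.68 CPM. The groups overlapped at replicate 1 of each, and the log2 fold change of 0.67 (SE 0.30, adjusted p = 0.0618) was not called. It was called without MCF10A NIR replicate 1 (0.86, adjusted p = 0.0372), without MCF10A IR replicate 1 (0.88, adjusted p = 0.0226), under upper-quartile normalization (0.76, adjusted p = 0.0362) and with counts divided by 2 (0.68, adjusted p = 0.0453). In HCT116 the libraries held 12, 6 and 2 counts without and 4, 8 and 5 counts with irradiation, at 0.202 ± 0.138 and 0.171 ± 0.0423 CPM (SD, n = 3), which overlapped. Mixed libraries were at 0.644, 0.894 and 0.389 CPM without irradiation and at 1.93, 2.00 and 1.71 CPM with it. These groups did not overlap, and the rise was 1.52 on the log2 scale (SE 0.37, adjusted p = 0.0016). Against HCT116, the mixed level was called higher with irradiation (adjusted p = 4.9e-06) and not without it (adjusted p = 0.210). The mixed response minus the HCT116 response was not called (adjusted p = 0.323).

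FAS encodes the receptor of FAS ligand. MCF10A libraries held 68.7, 67.1 and 68.4 CPM without irradiation and 81.1, 82.9 and 87.4 CPM with it. HCT116 libraries held 25.2, 29.2 and 24.0 CPM without and 78.8, 89.0 and 87.5 CPM with irradiation. Mixed libraries held 30.2, 25.4 and 30.8 CPM without and 62.5, 60.7 and 64.4 CPM with irradiation. The treated and untreated libraries were apart in all 3 kinds of culture. The rise was 0.28 in MCF10A (SE 0.05, adjusted p = 7.1e-05), 1.71 in HCT116 (SE 0.08, adjusted p = 4.5e-14) and 1.09 in the mixed cultures (SE 0.08, adjusted p = 2.2e-10). In order of level, HCT116 NIR and Mixed NIR overlapped at the bottom, Mixed IR and MCF10A NIR followed without overlap, and MCF10A IR and HCT116 IR overlapped at the top.

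TNFRSF10A and TNFRSF10B encode the receptors through which TRAIL signals death. TNFRSF10A was at 56.9, 52.8 and 56.1 CPM in MCF10A NIR and 62.5, 64.6 and 66.4 CPM in MCF10A IR. In HCT116 it was at 40.04, 36.2 and 36.4 CPM and, after irradiation, at 59.8, 60.1 and 68.3 CPM. Mixed NIR libraries lay from 36.7 to 38.6 CPM and Mixed IR libraries from 54.7 to 58.5 CPM. Irradiated libraries were thus the higher ones in each kind of culture, by 0.20 (SE 0.06), 0.75 (SE 0.08) and 0.55 (SE 0.07) on the log2 scale in MCF10A, HCT116 and the mixed cultures (adjusted p = 0.0043, 2.0e-08 and 1.2e-06). TNFRSF10B was at 245, 247 and 245 CPM in MCF10A NIR and 315, 318 and 329 CPM in MCF10A IR. In HCT116 NIR it was at 143, 152 and 171 CPM and in HCT116 IR at 285, 266 and 288 CPM. Mixed NIR ran from 142 to 160.3 CPM and Mixed IR from 264 to 286 CPM. No treated library of TNFRSF10B overlapped the untreated ones of its culture, and the rises were 0.36 (SE 0.04), 0.86 (SE 0.07) and 0.80 (SE 0.06) on the log2 scale in MCF10A, HCT116 and the mixed cultures (adjusted p = 1.1e-08, 2.4e-10 and 5.6e-10).

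TNFRSF10C and TNFRSF10D encode the decoy receptors of TRAIL: the first is held in the membrane by a lipid anchor, and the second has a truncated death domain. TNFRSF10C had no counts in the 3 MCF10A NIR libraries and 2, 0 and 16 counts in MCF10A IR. In HCT116 it was at 2.37, 2.02 and 1.92 CPM without and 9.02, 8.99 and 10.5 CPM with irradiation, and in the mixed cultures at 2.25, 1.36 and 2.22 CPM without and 8.81, 9.06 and 8.58 CPM with it. The HCT116 and mixed groups were clear of each other by treatment, and TNFRSF10C had the largest log2 fold change with counts in both groups among the 10 genes, 2.17 in HCT116 (SE 0.18, adjusted p = 4.6e-10) and 2.16 in the mixed cultures (SE 0.19, adjusted p = 6.5e-09). A fit without the low-count filter called TNFRSF10C in MCF10A (adjusted p = 0.0223), a call that rests on 18 counts in 2 libraries.

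TNFRSF10D was at 97.9, 95.1 and 91.9 CPM in MCF10A NIR and 150.4, 156 and 154 CPM in MCF10A IR. HCT116 NIR libraries held 98.0, 109 and 104 CPM and HCT116 IR libraries 139, 135 and 136 CPM. The monocultures did not overlap by treatment, with rises of 0.67 in MCF10A (SE 0.05, adjusted p = 1.4e-12) and 0.41 in HCT116 (SE 0.06, adjusted p = 6.6e-06). In the mixed cultures the libraries held 98.0, 96.6 and 115 CPM without and 131, 116 and 115 CPM with irradiation. There the highest untreated library lay between the treated ones, and the rise of 0.20 (SE 0.07, adjusted p = 0.0304) lost its call without Mixed NIR replicate 1 (0.15, adjusted p = 0.131), Mixed NIR replicate 2 (0.15, adjusted p = 0.138), Mixed IR replicate 1 (0.12, adjusted p = 0.204) or Mixed IR replicate 2 (0.22, adjusted p = 0.0530).

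EDA2R encodes a receptor of ectodysplasin A2 and lies on chromosome X. MCF10A libraries held 15.6, 14.5 and 16.2 CPM without and 29.9, 28.7 and 28.2 CPM with irradiation. That rise, of 0.88 on the log2 scale (SE 0.09, adjusted p = 1.4e-09), was the largest called change of the 10 genes in MCF10A. All 3 HCT116 NIR libraries had 0 counts, and the HCT116 IR libraries had 13, 44 and 18 counts, or 0.396, 1.08 and 0.699 CPM. Against a floor of 3 counts over the 3 untreated libraries the level in HCT116 IR was at least 22.8-fold higher, or at least 11.4-fold with counts divided by 2. The change was called (adjusted p = 2.3e-05), but EDA2R passed the low-count filter only through the irradiated libraries. With counts divided by 2 the filter left it out, so it had no test there. Any MCF10A RNA in the HCT116 IR libraries, estimated from genes specific to that line, would give 0.0183 to 0.0367 CPM of EDA2R. All Mixed NIR libraries were also at 0, and the Mixed IR libraries had 24, 28 and 2 counts.

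TNFRSF1A encodes the main receptor of tumour necrosis factor, which signals mostly to survival and inflammation and, when that is blocked, to death. MCF10A libraries held 116, 121 and 123 CPM without and 124, 124 and 126 CPM with irradiation, a log2 fold change of 0.04 (SE 0.05, adjusted p = 0.537). It was called under upper-quartile normalization (0.12, adjusted p = 0.0313). HCT116 libraries held 68.4, 67.4 and 81.2 CPM without and 51.0, 48.6 and 53.2 CPM with irradiation. TNFRSF1A fell there by 0.50 (SE 0.08, adjusted p = 9.4e-06), with no overlap, and it was the only one of the 9 genes tested in HCT116 that fell. In the mixed cultures it went from 70.2 ± 6.04 to 55.8 ± 3.61 CPM (SD, n = 3) and fell by 0.36 (SE 0.08, adjusted p = 0.00048).

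CASP8 encodes the initiator caspase recruited to FAS and the TRAIL receptors. MCF10A libraries held 57.3, 54.1 and 60.2 CPM without and 49.5, 50.8 and 51.2 CPM with irradiation. HCT116 libraries held 33.0, 31.0 and 29.5 CPM without and 52.7, 59.8 and 52.96 CPM with it. Mixed libraries ran from 33.3 to 37.6 CPM and, irradiated, from 50.8 to 55.2 CPM. CASP8 went in opposite directions in the lines: it fell by 0.20 in MCF10A (SE 0.06, adjusted p = 0.0068) and rose by 0.83 in HCT116 (SE 0.08, adjusted p = 7.7e-09) and by 0.54 in the mixed cultures (SE 0.07, adjusted p = 2.8e-06). The fall in MCF10A was not called under upper-quartile normalization (-0.12, adjusted p = 0.110).

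CFLAR encodes the caspase-8-like inhibitor c-FLIP, which can block caspase-8 at the receptor complex. MCF10A libraries held 87.6, 77.5 and 87.9 CPM without and 128, 133 and 127 CPM with irradiation. HCT116 libraries held 34.6, 41.9 and 37.4 CPM without and 71.9, 76.2 and 76.2 CPM with it, and mixed libraries went from 39.5 ± 4.51 to 72.3 ± 2.65 CPM (SD, n = 3). No treated library overlapped an untreated one of its culture, and CFLAR rose by 0.60 in MCF10A (SE 0.05, adjusted p = 1.1e-10), 0.99 in HCT116 (SE 0.08, adjusted p = 2.1e-10) and 0.84 in the mixed cultures (SE 0.08, adjusted p = 1.3e-08). The strand setting of the counting is not given in the sources used here, and CFLAR-AS1, listed separately, was at 0.75 to 4.05 CPM.

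**Figure D2:**
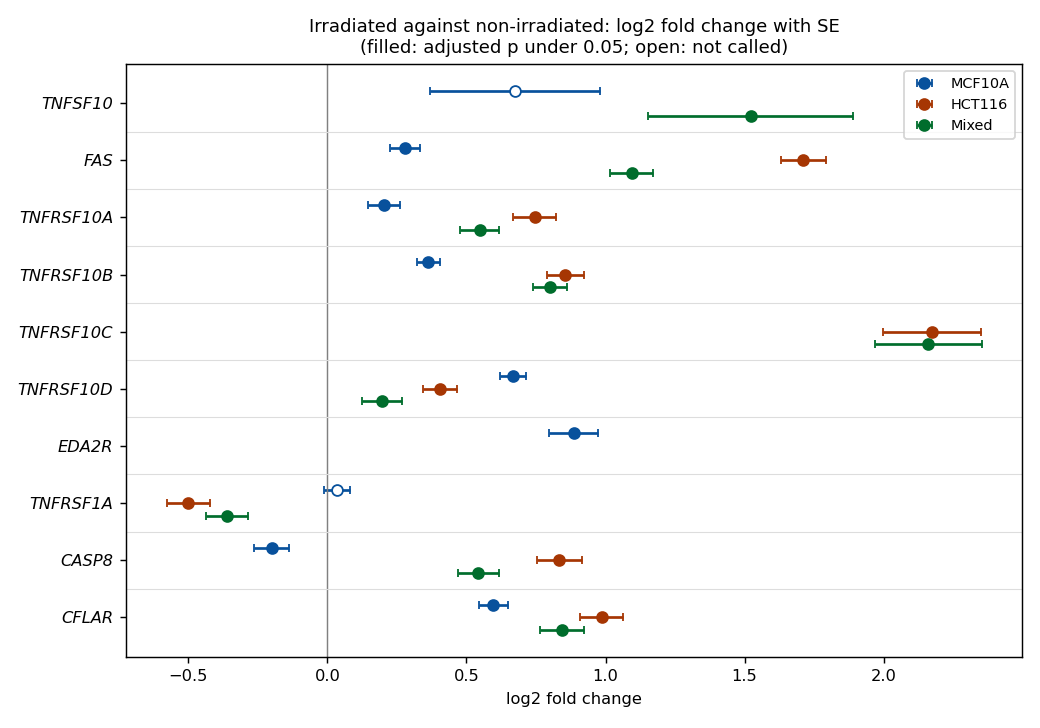
Log2 fold change of irradiated against non-irradiated libraries (x axis) for each gene (y axis), with SE bars, in MCF10A, HCT116 and mixed cultures (3 libraries against 3). Filled points were called at an adjusted p under 0.05. Genes the filter left out and EDA2R in HCT116, whose untreated group was at 0, are not drawn. FAS is at 0.28, 1.71 and 1.09, and CASP8 lies below 0 in MCF10A and above 0 in HCT116 and the mixed cultures.

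Whether the lines responded differently was tested directly over the 12 monoculture libraries as the HCT116 response minus the MCF10A response. Of the 10 genes, 6 had a larger log2 response in HCT116 and 2 a smaller one, where 37.3% of all genes were called (15.4% higher, 21.9% lower) and the median over all genes was -0.10. This excess of lower calls over all genes turned round in several alternatives: higher calls made up 41.3% of the calls here, 52.5% without mitochondrial and the 10 most abundant genes, 51.9% with no filter, 51.8% in a fit of all 18 libraries, 52.8%, 53.3% and 53.9% without MCF10A IR replicate 1, 2 or 3 and 53.2% without HCT116 IR replicate 2. FAS had the widest gap among genes with counts in all 4 groups, 1.35 (SE 0.10, adjusted p = 4.3e-11), followed by CASP8 at 0.96 (SE 0.10, adjusted p = 2.7e-08). TNFRSF10A differed by 0.46, TNFRSF10B by 0.41 and CFLAR by 0.31 (adjusted p = 0.00031, 0.00022 and 0.0096). TNFRSF1A had a difference of -0.61 (adjusted p = 8.0e-06) and TNFRSF10D one of -0.34 (adjusted p = 0.00074), which was -0.22 without MCF10A IR replicate 2 (adjusted p = 0.0420). TNFRSF10D thus rose more in MCF10A, whereas FAS, TNFRSF10A, TNFRSF10B and the inhibitor gene CFLAR rose more in HCT116. So did the reference genes CDKN1A (0.50, adjusted p = 0.00023) and MDM2 (0.35, adjusted p = 0.00037). Whether the responses split by function was not tested. The other decoy gene, TNFRSF10C, rose by 2.17 in HCT116 and had almost no counts in MCF10A, so its 2 responses cannot be ranked. EDA2R was called too (adjusted p = 1.0e-05), but its fitted difference depends on the prior count because HCT116 NIR was at 0, so the levels above stand in for it. TNFSF10 (-1.02, adjusted p = 0.299) was not called. TNFRSF10C was not called either (adjusted p = 0.107), except without MCF10A IR replicate 2 (adjusted p = 0.0339). MCF10A NIR was at 0 for TNFRSF10C, so the size of its fitted difference depends on the prior count, which was not varied. The fitted value was -3.65, and it was below 0 in every alternative, from -4.13 to -1.24 without 1 library.

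Without irradiation, 8 of the 10 genes were lower in HCT116 than in MCF10A and 1 was higher, while 74.8% of all genes were called (38.7% higher, 36.1% lower). The log2 differences were -3.09 for TNFSF10 (SE 0.53, adjusted p = 4.0e-05, and -3.71 without HCT116 NIR replicate 1), -1.58 for FAS (SE 0.08, adjusted p = 2.6e-12), -1.35 for CFLAR (SE 0.08, adjusted p = 2.5e-11) and -1.07 for CASP8 (SE 0.07, adjusted p = 3.0e-10). TNFRSF1A, TNFRSF10B and TNFRSF10A differed by -0.93, -0.86 and -0.75. EDA2R, at 15.4 ± 0.821 CPM in MCF10A NIR (SD, n = 3) and 0 in HCT116 NIR, was at least 485-fold lower in HCT116, or at least 243-fold with counts divided by 2. TNFRSF10C ran the other way: it was at 0 in MCF10A NIR and at least 69.3-fold higher in HCT116 NIR, or at least 34.6-fold with counts divided by 2. TNFRSF10D did not pass the test (-0.07, SE 0.06, adjusted p = 0.298), and its sign turned under upper-quartile normalization (0.13) and library size alone (0.13), under which the median of all genes was 0.25 rather than 0.05.

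After irradiation, the lines stood closer for FAS, TNFRSF10A, TNFRSF10B, CASP8 and CFLAR and further apart for TNFRSF1A. TNFRSF10D went from -0.07 to -0.39 in the fits used, but from 0.13 to -0.16 under library size alone. Again 8 of the 10 genes were called lower and 1 higher in HCT116, where 74.9% of all genes were called (38.1% higher, 36.8% lower). The FAS libraries of the lines overlapped in CPM, with means of 83.8 ± 3.24 in MCF10A IR and 85.1 ± 5.52 in HCT116 IR (SD, n = 3). The call for FAS, -0.21 (SE 0.06, adjusted p = 0.0029), rests on the scaling: library size alone gave 0.02 (adjusted p = 0.737), upper-quartile normalization -0.02 (adjusted p = 0.712) and a fit of all 18 libraries -0.14 (adjusted p = 0.0807). TNFRSF10A (-0.27, adjusted p = 0.00046) was likewise not called under upper-quartile normalization (-0.09, adjusted p = 0.202) or library size alone (-0.04, adjusted p = 0.559). CASP8 was not called (-0.10, adjusted p = 0.192) and was above 0 under these scalings (0.08 and 0.13), although it was called without HCT116 IR replicate 2 (-0.17, adjusted p = 0.0344). TNFRSF10B was at -0.43, TNFRSF10D at -0.39, CFLAR at -1.02, TNFRSF1A at -1.53, TNFSF10 at -4.09 and EDA2R at -5.49, all called and lower in HCT116 under each scaling tried. Under library size alone TNFRSF10B was at -0.20 and TNFRSF10D at -0.16. TNFRSF10C was called higher in HCT116 IR, by 5.31 (SE 0.38, adjusted p = 1.7e-12), but the MCF10A IR libraries held 2, 0 and 16 counts, and the value was 7.64 without MCF10A IR replicate 3 and 4.77 without replicate 2.

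**Figure D3:**
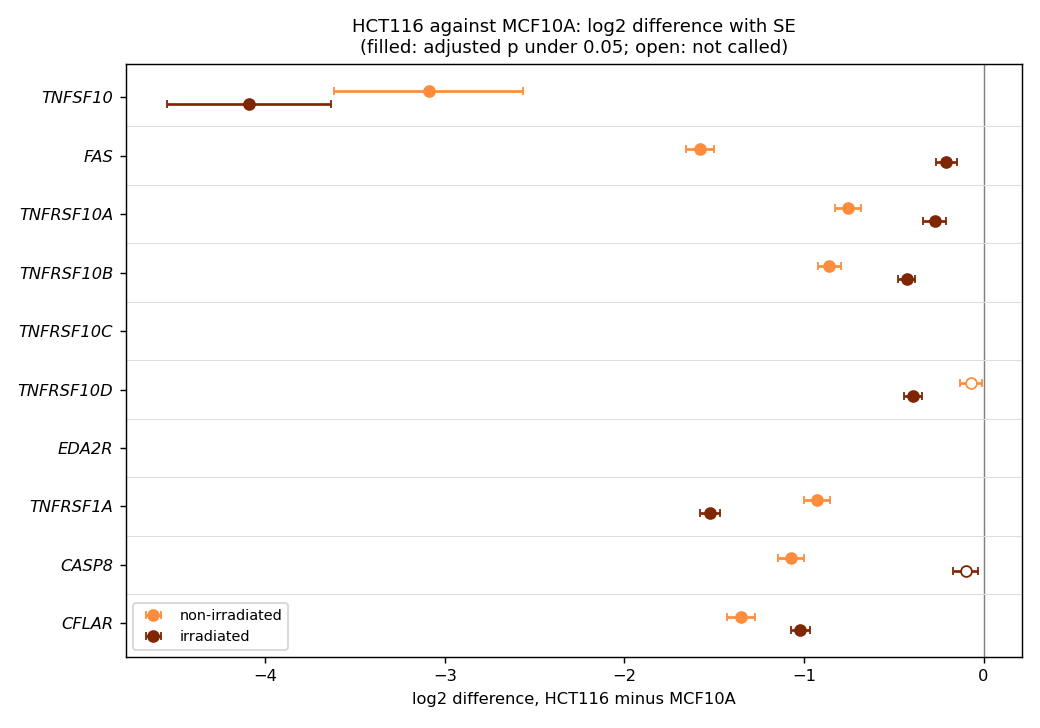
Log2 difference of HCT116 minus MCF10A (x axis) for each gene (y axis) with SE bars, in non-irradiated and irradiated monocultures (3 libraries against 3). Filled points were called at an adjusted p under 0.05. EDA2R and TNFRSF10C, with a group at or near 0, are not drawn. FAS goes from -1.58 to -0.21 and CASP8 from -1.07 to -0.10, while TNFRSF1A goes from -0.93 to -1.53. Under upper-quartile normalization and library size alone, the irradiated CASP8 and non-irradiated TNFRSF10D points, and under library size alone the irradiated FAS point, lie above 0.

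Divided by the length of their merged exons in GENCODE release 29, TNFRSF10B had the highest mean of the 10 genes in all 6 groups, from 29.7 CPM per kb in Mixed NIR to 62.2 CPM per kb in MCF10A IR. TNFRSF10D came next in 5 groups, and in HCT116 NIR its 29.4 ± 1.58 CPM per kb lay within the spread of TNFRSF10B at 30.1 ± 2.83 (SD, n = 3). The same held in Mixed NIR, with TNFRSF10D at 29.2 ± 2.90 and TNFRSF10B at 29.7 ± 1.86 CPM per kb. In MCF10A NIR, TNFRSF1A came between them at 29.95 ± 0.918 CPM per kb. FAS moved from 6.14 ± 0.637 to 20.0 ± 1.30 CPM per kb in HCT116, the latter within the spread of TNFRSF10A at 21.3 ± 1.64. CFLAR, at 1.69 to 5.74 CPM per kb across the groups, is lowered on this scale by merged exons of 22529 bases. The lengths are not those of the authors' annotation, which is not given in the sources used here. The 4 TNFRSF10 genes shared no stretch of 100 bases between their annotated transcripts.

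Mixed cultures were set against HCT116 alone because little of their RNA came from MCF10A. From genes specific to a line, the MCF10A share of RNA was estimated at 0.447% ± 0.0528 in Mixed NIR and 1.24% ± 0.0662 in Mixed IR libraries (SD, n = 3). The same estimate in HCT116 libraries, each left out of its own reference, was 0.00873% to 0.0548% without and 0.0635% to 0.127% with irradiation. The share is of counted RNA, and fewer MCF10A cells and less RNA per cell cannot be told apart. It rests on medians over genes, and a stricter gene set gave 0.301% in Mixed NIR and 0.955% in Mixed IR. Single genes fell below it. At the Mixed NIR share, 0.0616 to 0.0777 CPM of EDA2R would come from MCF10A, and all 3 libraries were at 0. KRT5 in Mixed IR lay far below this share of its level in MCF10A, so the share may be too high.

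Without irradiation none of the 9 genes tested differed between mixed and HCT116 cultures at an adjusted p under 0.05 with edgeR or DESeq2, where 2.04% of all genes were called (0.887% higher, 1.15% lower). TNFSF10 (1.63, SE 0.61) and CASP8 (0.21, SE 0.08) were the 2 genes with an unadjusted p under 0.05 (adjusted p = 0.210 and 0.226). For the other 7 genes the log2 difference lay between -0.10 and 0.15.

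With irradiation 3 of the 10 genes differed, against 8.56% of all genes (5.08% higher, 3.48% lower). TNFSF10 was higher in Mixed IR by 3.43 (SE 0.46, adjusted p = 4.9e-06), with 68, 75 and 62 counts against 4, 8 and 5. Its level also exceeded what the lines would give in proportion: a sum of the monocultures weighted by the RNA shares gave 0.198 to 0.201 CPM, of which 0.0296 to 0.0327 CPM came from MCF10A, so the observed levels were 9.58, 10.1 and 8.53 times that sum. The Mixed NIR libraries were at 3.08, 4.30 and 1.88 times their sum. HCT116 libraries, each left out of its own reference, were at 2.67, 0.886 and 0.271 times theirs without irradiation, so the NIR ratios overlapped. With irradiation the HCT116 ratios were 0.615, 1.23 and 1.20. KRT17, a keratin of basal epithelium, also stood higher in Mixed IR than in HCT116 IR, at 13.1 ± 2.07 against 1.69 ± 0.496 CPM (SD, n = 3), while KRT5 was at 2.72 ± 0.183 against 1.54 ± 0.944 CPM. The 6 basal mammary markers summed to 1090 to 1300 CPM in Mixed IR and 951 to 1138 CPM in HCT116 IR, mostly ITGB4, which HCT116 also expresses. The part of these markers in the TNFSF10 result was not tested.

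FAS was lower in Mixed IR than in HCT116 IR by a log2 difference of -0.45 (SE 0.06, adjusted p = 5.9e-06), and the groups did not overlap. The observed levels were 0.734, 0.714 and 0.757 times the weighted sum of 85.1 CPM, which lies above the FAS level of any Mixed IR library. A lower level was not particular to FAS: the reference gene CDKN1A differed by -0.49 (adjusted p = 7.0e-08). CDKN1A was also lower without irradiation (-0.35, adjusted p = 0.0307), a call lost in 4 of 6 fits without 1 library. The other reference gene, MDM2, was higher in Mixed IR (0.21, adjusted p = 0.0096), a call lost in 3 of 6 such fits. TNFRSF10D was lower by -0.19 (SE 0.06, adjusted p = 0.0380), a call that was lost in 5 of the 6 fits without 1 library, that is without HCT116 IR replicate 1 (-0.18), 2 (-0.20) or 3 (-0.20) or Mixed IR replicate 2 (-0.16) or 3 (-0.15), and in a fit of all 18 libraries (-0.16, adjusted p = 0.159). TNFRSF10A (-0.17, adjusted p = 0.133) had groups that did not overlap and was not called. EDA2R, with 24, 28 and 2 counts in Mixed IR, did not differ beyond its spread (-0.57, SE 0.59, adjusted p = 0.658). The estimated MCF10A share alone would give 0.337 to 0.373 CPM of it, above the 0.0552 CPM of replicate 3.

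The response of the mixed cultures was also compared with that of HCT116. FAS was the only one of the 10 genes called, where 0.830% of all genes were (0.681% higher, 0.149% lower): its rise was smaller in the mixed cultures by a log2 difference of -0.61 (SE 0.11, adjusted p = 0.0072). TNFSF10 had a difference of 1.80 (SE 0.77, adjusted p = 0.323), from libraries with 2 to 75 counts. The difference for EDA2R has no value, since both untreated groups were at 0. CFLAR (-0.13, SE 0.11), TNFRSF10B (-0.04, SE 0.10) and TNFRSF10C (-0.00, SE 0.27) were near 0. The reference genes CDKN1A (-0.13, adjusted p = 0.694) and MDM2 (0.18, adjusted p = 0.352) were not called.

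**Figure D4:**
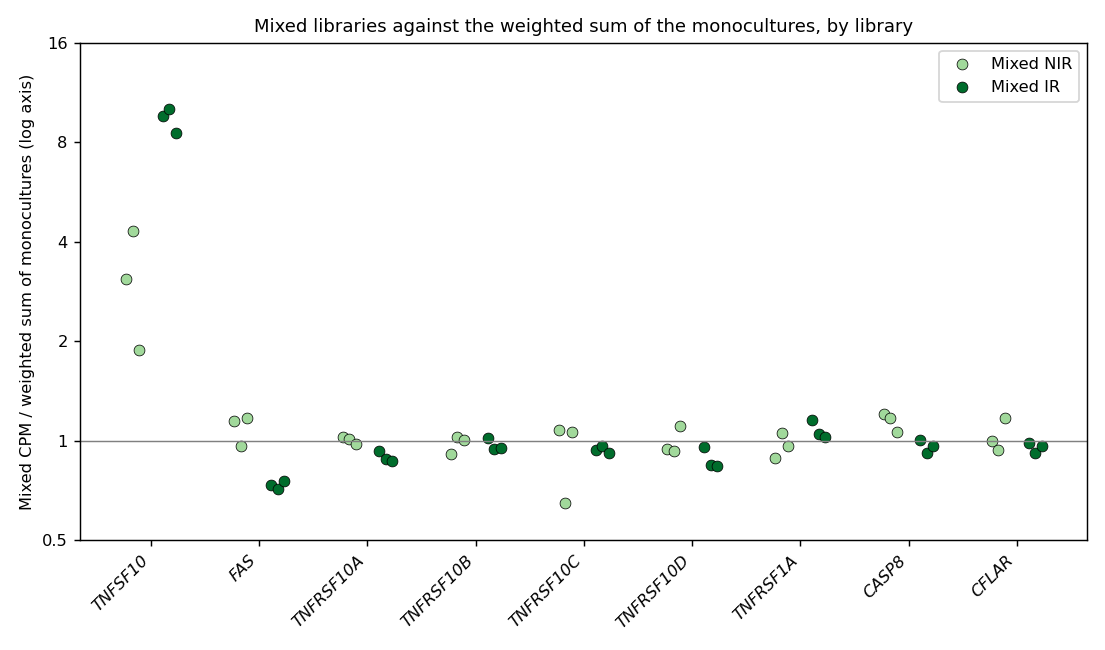
CPM of each mixed library divided by the weighted sum of the monocultures (y axis, log scale with base 2) for 9 of the genes (x axis), without and with irradiation, 3 points each. The line at 1 marks equality, and EDA2R, at 0 in Mixed NIR, is not drawn. TNFSF10 in Mixed IR lies at 8.53 to 10.1 and FAS in Mixed IR at 0.714 to 0.757.

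A list of 43 further genes of the pathway, written from general knowledge, held ligands, receptors, adaptors, downstream caspases, inhibitors and necroptosis genes. In MCF10A 14 of the 37 tested rose and 4 fell, in HCT116 10 of 35 rose and 5 fell, and in the mixed cultures 11 of 37 rose and 7 fell, with medians of 0.14, 0.13 and 0.10 on the log2 scale. Over all genes, 55.4%, 52.5% and 49.4% were called in these comparisons, and the shares called in the list, 18 of 37, 15 of 35 and 18 of 37, were not above them. By direction, 26.2%, 25.3% and 24.0% of all genes were higher and 29.2%, 27.2% and 25.4% lower. The list thus had a larger share of rises and a smaller share of falls than all genes in each, which was not tested. CASP10, the other initiator caspase, rose in all 3 kinds of culture, by 1.17, 1.25 and 1.09 (adjusted p = 0.0041, 4.2e-09 and 8.1e-08). FADD, the adaptor of FAS and the TRAIL receptors, was not called in any of them (-0.16, 0.31 and -0.06), and neither was XIAP, an inhibitor of executioner caspases (0.00, 0.13 and 0.07).

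Among these, the ligand gene TNFSF15 rose in MCF10A from 1.90 to 9.19 CPM (2.25), together with TNFAIP3 (0.86), a brake on NF-kappaB signalling, and CYCS, the cytochrome c gene, fell by 0.62 there. FAIM, an inhibitor of FAS killing, fell in MCF10A by 0.50 and MLKL, the executor of necroptosis, by 0.48. HCT116 showed rises of EDAR (1.48), an ectodysplasin receptor, and of BID (0.80), which links caspase-8 to mitochondria, while TNFRSF19 fell by 2.35, NGFR fell by 1.33 and EDA fell by 0.61. In the mixed cultures PEA15 (0.75), a protein with a death effector domain, and TNFRSF12A (0.59) rose, and TNFRSF19 fell by 1.93 and NGFR fell by 0.75. EDA, the ectodysplasin gene, fell there by 0.45, a call lost without Mixed NIR replicate 2 (-0.37, adjusted p = 0.0877) or Mixed IR replicate 1 (-0.35, adjusted p = 0.0960). The ligand genes FASLG and TNF had means of at most 0.152 and 0.254 CPM in any group, RIPK3 had counts in 1 library only, and TNFRSF6B, a soluble decoy, had none.

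Between the untreated lines, 11 genes of this list were higher and 20 lower in HCT116 of 36 tested, where 74.8% of all genes were called (38.7% higher, 36.1% lower). NGFR (5.85), TNFRSF19 (3.15) and CASP10 (2.73) were the highest by rule, and TNFAIP3 (-4.18), TNFSF15 (-3.48) and BIRC3 (-3.38), an inhibitor of apoptosis that acts at the TNF receptor, the lowest. With irradiation 10 were higher and 21 lower of 38, where 74.9% of all genes were called (38.1% higher, 36.8% lower). The responses of the lines differed for 15 of 38 genes, near the 37.3% over all genes, 5 with a larger response in HCT116 (MLKL 1.07, CYCS 0.93 and FAIM 0.83 among them) and 10 with a smaller one (TNFRSF19 -3.00 the furthest). Between mixed and HCT116 cultures, none of 35 genes was called without irradiation by edgeR, against 2.04% of all genes (8 at an unadjusted p under 0.05, and 2 called by DESeq2). With irradiation 5 of 37 were called, against 8.56% of all genes: NGFR (0.52), BIRC3 (0.27) and BIRC2 (0.22) were higher and CASP10 (-0.32) and BID (-0.26) lower. Leaving out 1 library took away the call of each of these 5 in at least 1 of 6 fits, and 1 to 4 genes were called in such fits.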

How the data were processed

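Polyadenylated RNA was measured in 18 libraries, 3 in each of 6 groups, and groups were taken from the sample titles. The authors deposited raw counts per gene symbol, made with fastp, STAR and featureCounts on GRCh38, per the submitters' processing notes. The versions, annotation and strand setting are not given in the sources used here. The 40916 symbols were the same in all tables, and 10180 had no count in any library.

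Counts were tested with edgeR 4.0.16 in R 4.3.3 (TMM, filterByExpr, quasi-likelihood test, 2-sided, compared groups only), with Benjamini-Hochberg adjustment over all genes tested and a threshold of 0.05. Standard errors (SE) were derived from the log2 fold change and the F statistic. Where a group had no counts, a floor of 3 counts for the whole group was used and folds are lower bounds. They cover counting error only. The MCF10A share used genes at a mean of at least 20 CPM in a line and below 1 CPM throughout the other line. DESeq2 1.42.0, other scalings, no filter, a fit of all 18 libraries, a replicate block, counts divided by 2, removal of mitochondrial and the 10 most abundant genes, and leaving out each library were the alternatives.

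All 10 genes were reported in every comparison. A reference gene and a genotype given for HCT116 are not reported here. Of the 43 other pathway genes, the rule named the 3 with the largest called change in each direction that had a mean of at least 1 CPM where it was higher and groups that did not overlap (overlap was not considered in response differences). The others named (FADD, XIAP, FASLG, TNF, RIPK3 and TNFRSF6B, and keratins from the marker lists) were chosen after their values were seen. The genes, lists and tests were chosen with earlier results of these data known. Replicates differed by more than counting error: chi-squared per gene between replicates was 2.40 to 7.03 with counts divided by 2.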

Additional observations from a re-analysis of the deposited data

Results flagged for a closer look

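A direct test of the HCT116 response minus the MCF10A response (edgeR quasi-likelihood, 12 libraries) called 8 of the 10 genes, where 37.3% of all genes were called. FAS had a log2 difference of 1.35, CASP8 one of 0.96, TNFRSF10A one of 0.46, TNFRSF10B one of 0.41 and CFLAR one of 0.31, each with the larger response in HCT116. EDA2R had a fitted difference of 6.52, which is no bound because HCT116 NIR had no counts. TNFRSF1A had a difference of -0.61 and TNFRSF10D one of -0.34. In the test of the mixed response minus the HCT116 response, FAS had a difference of -0.61.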

How the results depend on the processing

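Across 1385 values of the 10 genes under alternatives (85 results), 1337 kept their direction and their side of the threshold, 15 lost a call, 7 gained one and 26 changed sign, 1 of them for a called value: FAS between the irradiated lines under library size alone (0.0226). The number of the 10 genes called moved by no more than 1.5 times in any comparison under the alternatives run. Under upper-quartile normalization and library size alone, the median over all genes was 0.25 and 0.25 between the untreated lines (0.05 under TMM) and 0.22 and 0.27 between the irradiated ones (0.04). Signs turned there for TNFRSF10D (untreated, 0.133 and 0.129) and CASP8 (irradiated, 0.0831 and 0.130), and TNFRSF10D in Mixed NIR against HCT116 NIR went to -0.0111 and -0.00783. TNFRSF10B in that comparison was at 0.00857 in a fit of all 18 libraries. TNFRSF10C in the mixed response minus the HCT116 response was at 0.00661, 0.0207, 0.00971 and 0.00589 under upper-quartile normalization, library size alone, all 18 libraries and the replicate block. When 1 library was left out, values that changed sign were uncalled and ran as follows. In Mixed NIR against HCT116 NIR, TNFRSF10A ran from -0.00283 to 0.0631, TNFRSF10B from -0.0716 to 0.0813, TNFRSF10C from -0.221 to 0.102, TNFRSF10D from -0.0808 to 0.0524, TNFRSF1A from -0.0929 to 0.0760 and CFLAR from -0.0238 to 0.152. TNFRSF10C in the mixed response minus the HCT116 response ran from -0.231 to 0.0957 and MDM2 between the irradiated lines from -0.00877 to 0.0866.

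For the 43 other pathway genes, calls in Mixed NIR against HCT116 NIR went from 0 to 2 with DESeq2, 2 with no filter, 4 with all 18 libraries and 2 with the replicate block, and to between 0 and 1 without 1 library. In Mixed IR against HCT116 IR they went from 5 to 3 with all 18 libraries and to between 1 and 4 without 1 library, and in the mixed response minus the HCT116 response from 0 to 1 with no filter and to between 0 and 1 without 1 library (0 by DESeq2, 10 at an unadjusted p under 0.05). Over all genes, calls in Mixed NIR against HCT116 NIR went from 335 to 576 (DESeq2), 671 (no filter), 768 (all 18 libraries), 716 (replicate block) and 145 to 313 (without 1 library). In Mixed IR against HCT116 IR they went from 1467 to 2220 with the replicate block and to 866 to 1312 without 1 library, and in the mixed response minus the HCT116 response from 150 to 327 (DESeq2), 336 (no filter) and 64 to 197 (without 1 library). Of the genes called, 57.5% were higher in irradiated MCF10A under upper-quartile normalization against 47.4%, 62.4% and 62.2% were higher in HCT116 without irradiation under upper-quartile normalization and library size alone against 51.8%, 62.4% with irradiation under library size alone against 50.8%, and 61.5% in the mixed response minus the HCT116 response with DESeq2 against 82.0%. A fit of all 18 libraries gave 63.8% against 43.6% in Mixed NIR against HCT116 NIR, 80.5% against 59.4% in Mixed IR against HCT116 IR and 51.8% against 41.3% in the HCT116 response minus the MCF10A response, which reached 53.9% without 1 library. In the mixed response minus the HCT116 response the share fell as low as 68.7% without 1 library. The MCF10A share of Mixed NIR was 0.345% from genes of at least 50 CPM and 0.301% from genes under 0.2 CPM in the other line, and that of Mixed IR 1.07% and 0.955%.

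Replicate numbers did not pair libraries: the deviations of libraries with the same number correlated between -0.147 and 0.196, with means per pair of groups from -0.0614 to 0.105 over 15 pairs, and 6 of 18 libraries matched their own number best. The replicate block changed no call of the 10 genes. TNFSF10 in HCT116 and EDA2R in HCT116 IR and Mixed IR rest on 2 to 44 counts per library, and a change there is not detectable at this depth unless it is large. Values were added for the other pathway genes and for all genes after the data had been seen.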

Other observations

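The genes whose levels followed each of the 10 genes most closely were found from Pearson's r of log2(CPM + 0.5) over the 18 libraries, among 14129 genes of at least 1 CPM. The libraries fall into groups by line and treatment, so these values describe shared group patterns, and none was tested. TNFSF10 was most like MMP2 (0.95) and then TNC (0.93) and IFI44L (0.93). Its libraries lay from 0.0724 to 3.21 CPM, close to the 0.5 added, so levels near 0 shape these values. FAS was most like REXO2 (0.98), CCDC90B (0.98) and RAB1A (0.98). TNFRSF10A was most like PARP14 (0.98) and then ZNF219 (0.98) and FAS (0.97). TNFRSF10B was most like IGFBP6 (0.99), RHOD (0.98) and TRIM35 (0.98). TNFRSF10C was most like HIC2 (0.99), ZNF195 (0.99) and ALDH1A3 (0.99), and TNFRSF10D like TCTA (0.96), WIPI2 (0.95) and BTBD9 (0.94). EDA2R was most like LASTR (0.99), HADHB (0.99) and ACTN1 (0.99), and TNFRSF1A like GCNT1 (0.99), LSS (0.99) and TMSB4X (0.99). For CASP8 these genes were HSPA4 (0.97), ZNF37A (0.97) and UTP6 (0.965), and for CFLAR ABCA12 (0.98), CCDC9B (0.98) and SLC44A5 (0.98).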
